A study of Mus musculus with 27 samples.

Results

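Transcripts of type I interferon stimulated genes were measured in colon lamina propria (LP) monocytes, macrophages and conventional type 1 dendritic cells (cDC1s) of wild-type (WT) mice and of mice lacking Mbd2 (Mbd2-/-), a protein that binds methylated DNA and recruits repressors of transcription. The genes were taken from a list of 42 symbols, and a probe was a member where the symbol the array table gives it equals one of them. Of the 42 symbols, 38 matched 65 of the 45281 probes in the table, while Isg15, Xaf1, Parp9 and Cmpk2 matched none. Of these 38, 20 had 1 probe and 18 had several, with at most 5 for Adar and for Oas1g. Dlm1-pending is an older name of Zbp1 and was kept as its own row, so that the list holds 1 gene under 2 names. Counts of genes below are counts of symbols, in which both names enter, and the brightest probe was chosen for each symbol.

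All mice were given 2% dextran sulfate sodium (DSS), which damages the colon epithelium and causes colitis, in their drinking water, so that no untreated colon cells were part of the comparison. The Mbd2-/- mice were adult animals on a C57BL/6 background that lacked the gene in every cell, WT littermates were their controls, and an array could hold RNA pooled from several animals. Cells were sorted by flow cytometry as CD11b+Ly6C+ monocytes, CD11b+Ly6C- macrophages that carried MHC-II and a macrophage surface antigen, and cDC1s negative for CD11b and positive for CD11c and CD103. RNA was hybridised to Illumina mouse BeadChips: 5 WT and 5 Mbd2-/- monocyte arrays, 5 WT and 5 Mbd2-/- macrophage arrays, and 2 WT and 3 Mbd2-/- cDC1 arrays. Arrays are named here by the number in their label. The labels do not say which arrays came from the same experiment, so p-values measure the spread between these arrays.

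Type I interferons (IFN-α and IFN-β) bind the receptor made of Ifnar1 and Ifnar2, whose kinases Jak1 and Tyk2 phosphorylate Stat2. With Irf9, Stat2 is part of the complex ISGF3, which binds the interferon stimulated response element (ISRE) in the promoters of its target genes. Their products sense viral nucleic acids (Ddx58, Ifih1, Dhx58), sustain the response (Irf7), block viral replication (the Ifit, Oas and Mx families, Rsad2) or end the signal (Usp18). In the gut, the microbiota maintains a tonic type I interferon signal in mononuclear phagocytes. IFN-γ induces an overlapping set of genes through the GAS element.

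Promoters of the members were read from RefSeq (GRCm38.p6) as 250 bases before to 50 bases after each gene's start. A promoter was listed for 30 of the 42 symbols. The core of the ISRE, GAAA, any 2 bases and GAAA on either strand, was found in 17 of these 30 (56.7%), compared to 1131 of 32851 promoters overall (3.44%). The palindromic GAS letters (TTC, any 3 bases and GAA) were found in 8 of 30 (26.7%), compared to 8.30% of all promoters. A listed gene was counted if any of its promoters held the letters, up to 3 for Isg20 and Adar, whereas all promoters were counted singly. Both are matches of letters, not sites shown to be bound. The 170 bases before the start are printed for Rsad2, Ifit3 and Oas1g, 3 of the antiviral genes lowest in cDC1s relative to other cells. They are also printed for Ifi205, the member that rose most in cDC1s over macrophages. The ISRE core is in capitals.
Rsad2 promoter, chr12:26456453-26456622 (- strand): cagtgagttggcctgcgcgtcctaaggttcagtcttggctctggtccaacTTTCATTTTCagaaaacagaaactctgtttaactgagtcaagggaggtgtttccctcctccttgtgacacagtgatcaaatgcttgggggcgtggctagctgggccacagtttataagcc
Ifit3 promoter, chr19:34583359-34583528 (+ strand): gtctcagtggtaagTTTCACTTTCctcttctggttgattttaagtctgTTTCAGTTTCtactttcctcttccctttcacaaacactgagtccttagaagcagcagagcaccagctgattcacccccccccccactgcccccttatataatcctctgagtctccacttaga
Oas1g promoter, chr5:120887614-120887783 (- strand): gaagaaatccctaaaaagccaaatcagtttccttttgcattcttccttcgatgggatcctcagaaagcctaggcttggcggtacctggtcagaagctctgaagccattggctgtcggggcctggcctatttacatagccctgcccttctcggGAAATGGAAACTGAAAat
Ifi205 promoter, chr1:174031756-174031925 (- strand): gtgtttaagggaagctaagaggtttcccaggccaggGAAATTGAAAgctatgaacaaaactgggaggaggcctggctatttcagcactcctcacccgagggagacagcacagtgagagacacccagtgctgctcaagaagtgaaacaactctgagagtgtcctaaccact
The core began 120 bases before the start in Rsad2, 156 and 122 in Ifit3 and 134 in Ifi205. In Oas1g it occurred at 18 and 12 bases before the start, the copies overlapping. The promoter windows of Oasl2, which was low in cDC1s, and of Ifi35, which was high there, held 0 copies, so genes of either kind were found with and without these letters.

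Levels are log2 of background-corrected, quantile normalised bead intensities, and differences are log2 fold changes. A gene is given by its brightest probe, other probes being named where they differed. Since probes hybridise with different efficiency, levels were compared between samples for one probe and not between genes. The number of arrays limited the precision: over 210 sets of 1 probe in 1 group the median SD between arrays was 0.31, whereas the median standard error from the beads of an array was 0.05. Between 40 and 53 of the 65 member probes were detected above the negative controls (detection p under 0.05) on each array, of 16024 to 18608 probes detected in all. Ifit1, Oas1b and Ifi44 had no probe detected on enough arrays to be tested in any comparison. Probes of the near-identical Oas1 genes and of the Ifi200 family (Ifi203, Ifi204, Ifi205) may share signal, which could not be checked without the probe sequences.

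The markers of each sorted cell type summed highest on its own arrays, by differing margins. Summed intensities of the cDC1 markers (7 on the array, among them Xcr1 and Clec9a) were 13367 to 15128 on cDC1 arrays and 1112 to 2310 on the others. Those of the macrophage markers were 35337 to 42080 on macrophage arrays, 16293 to 21071 on monocyte arrays and 2456 to 5620 on cDC1 arrays. Those of the monocyte markers were 16569 to 28418 on monocyte arrays, 5218 to 9593 on macrophage arrays and 6859 to 10077 on cDC1 arrays. The monocyte marker Ccr2 was not detected on any array of Mbd2-/- monocytes, WT macrophages or cDC1s of either genotype. It was detected on too few WT monocyte arrays to be tested for genotype. T cell markers summed to 391 to 2920 on cDC1 arrays and 246 to 587 on the others. Epithelial markers summed to 4625 to 17526 over all arrays. The lists of B cell, neutrophil, eosinophil, NK cell and plasmacytoid dendritic cell markers each summed to between 59.1 and 2708. The part of these cells in the results was not tested. In sorted populations, fewer cells of a type and less RNA per cell cannot be told apart. Since no array detected Mbd2, its probe could not serve as a check of the genotype.

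Across the 3 cell types, most interferon stimulated genes were highest in monocytes, intermediate in macrophages and lowest in cDC1s. Of 33 genes whose brightest probe could be ordered in both genotypes, 23 had this order of mean levels in WT mice and 24 in Mbd2-/- mice, 20 of them in both. The per-array median over 35 members was 8.02 to 9.06 in WT monocytes, 7.47 to 8.15 in WT macrophages, and 6.88 and 7.47 on the 2 WT cDC1 arrays. In Mbd2-/- mice it was 8.69 to 9.31, 7.54 to 8.34 and 7.24 to 7.45. The exceptions included Ifi35 (a regulator of interferon signalling), which was highest in cDC1s in both genotypes, and Ifih1 (the sensor MDA5), which was highest in macrophages in both. For Ifih1 the monocyte and macrophage means did not differ beyond their spread (5.60 ± 0.34 and 5.61 ± 0.55 in WT, SD, n = 5 each).

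**Figure D1:**
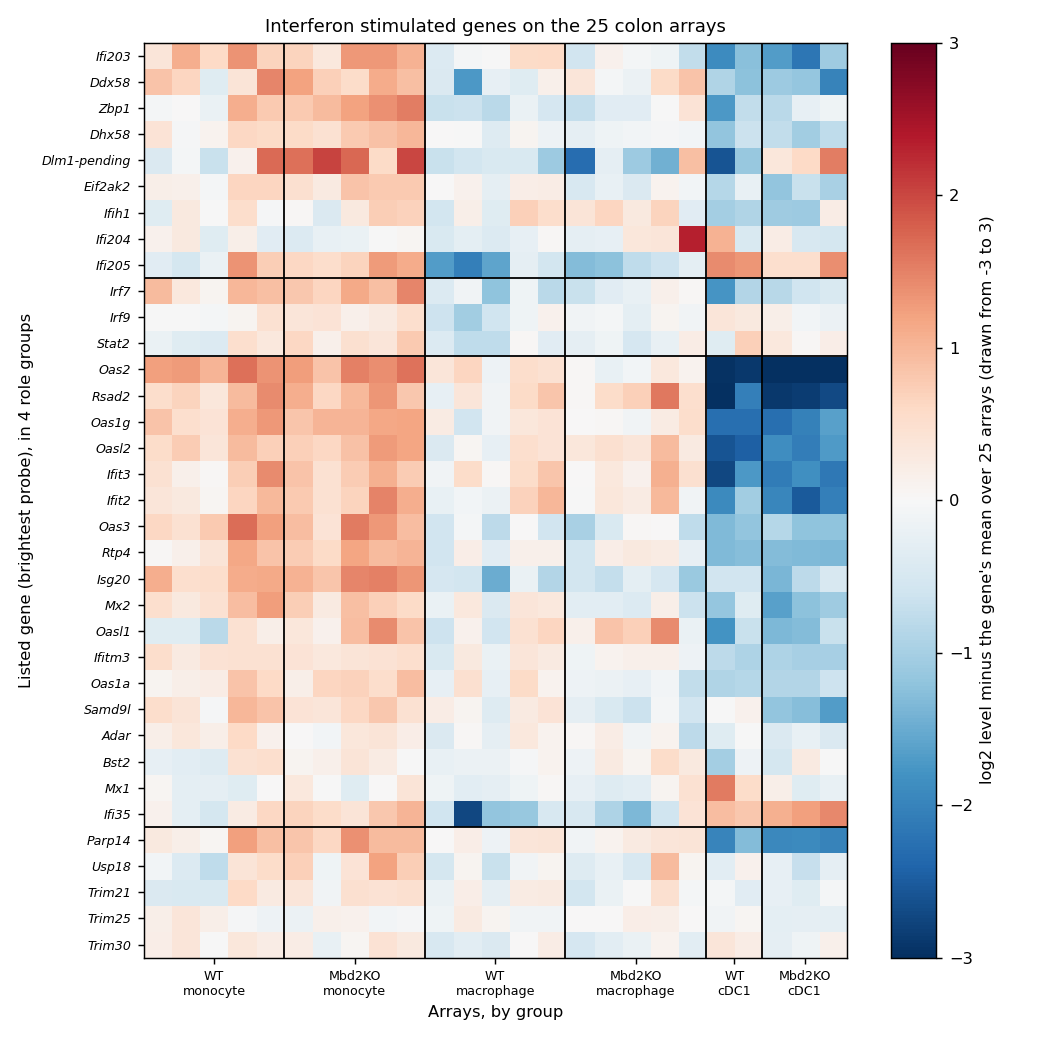
Heat map of 35 members (rows, brightest probe, in the role groups sensors, transcription factors, effectors, and ubiquitin and ADP-ribosyl genes) on the 25 colon arrays (columns), as log2 level minus the gene's mean, drawn from -3 to 3. Oas2, Rsad2, Oas1g, Oasl2 and Ifit3 were low on all 5 cDC1 arrays, whereas Ifi205 and Ifi35 were high there.

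The comparison of cDC1s with monocytes asked how far the interferon program differed between these lineages in the inflamed colon. The antiviral effectors were much lower in cDC1s: Oas2 fell by 4.34 on the log2 scale, although it was measured on only 2 of 5 cDC1 arrays, and the differences of Rsad2, Oas1g and Ifit3 were -3.55, -3.05 and -2.80, all of which passed. Of 52 member probes tested, 36 were lower and 5 higher in cDC1s (adjusted p under 0.05, limma), and 28 were lower by at least 1 log2 unit. Among all 17552 probes tested, 26.4% were lower and 28.2% higher, and 8.91% were lower by at least 1 unit. The median of the member probes was -1.23 (-1.20 with the 3 undetected probes at their bound), beside -0.01 for all probes. By role, 7 of 9 sensors, 1 of 3 transcription factors, 16 of 18 effectors and 2 of 5 ubiquitin and ADP-ribosyl genes fell. The 5 probes that rose were Mx1 (0.51, SE 0.16, adjusted p = 0.0109, limma), 2 dimmer probes of Ifi205 (2.23 and 2.62) and dimmer probes of Irf9 (0.71) and Usp18 (0.64), whose brightest probes did not pass.

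Oas2, which makes the second messenger that activates RNase L, was near 9 on every monocyte array. Its levels were 8.85, 8.90, 8.65, 9.26 and 8.96 in WT monocytes, and 8.88, 8.47, 9.13, 9.02 and 9.24 in Mbd2-/- monocytes. In WT macrophages they were 7.99, 8.26, 7.47, 8.15 and 8.08, and in Mbd2-/- macrophages 7.65, 7.40, 7.54, 7.94 and 7.71. On the WT cDC1 arrays Oas2 was at 4.66 and 4.74, whereas none of the 3 Mbd2-/- cDC1 arrays detected it. The cDC1 arrays therefore lay below all others, and the size of the difference is at the edge of detection. With the 3 undetected arrays at the dimmest signal that could be detected, it was -4.26 against monocytes and -3.14 against macrophages. The limma estimate was -4.34 (SE 0.13, adjusted p = 4.27e-17) against monocytes and -3.22 (SE 0.13, adjusted p = 5.98e-15) against macrophages.

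Rsad2 (viperin, which makes a chain-terminating nucleotide) was detected on every array. Monocyte levels were 10.42, 10.56, 10.23, 10.85 and 11.31 in WT and 11.00, 10.52, 10.88, 11.23 and 10.71 in Mbd2-/- mice. Macrophages had 9.65, 10.26, 9.78, 10.47 and 10.72 in WT and 9.94, 10.44, 10.62, 11.47 and 10.39 in Mbd2-/- mice. Levels of cDC1s were 6.88 and 7.86 in WT and 7.00, 7.05 and 7.18 in Mbd2-/- mice, with no overlap with either other cell type. Unlike Oas2, Rsad2 did not pass between macrophages and monocytes (-0.50, adjusted p = 0.182 in WT, and -0.29, adjusted p = 0.451 in Mbd2-/- mice, limma).

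Ifit3, which binds viral RNA together with Ifit1, followed Rsad2. It had 9.35, 9.05, 8.92, 9.63 and 10.31 in WT monocytes and 8.78, 9.44, 8.93, 9.43 and 9.72 in WT macrophages, but 6.17 and 7.17 in WT cDC1s. In Mbd2-/- mice it ranged from 9.34 to 9.97 in monocytes and 8.91 to 9.96 in macrophages, and was 6.80, 7.04 and 6.75 in cDC1s. The cDC1 arrays again lay apart from all others, and Ifit3 in cDC1s fell by 2.51 against macrophages (SE 0.22, adjusted p = 2.73e-09, limma) and fell by 2.80 against monocytes. The related Ifit2 (8.70 ± 0.35 in WT monocytes, 6.76 ± 0.62 in WT cDC1s, SD, n = 5 and 2) differed by -2.50 and fell as well.

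Oasl2 and Oas1g, both of the oligoadenylate synthetase family, were lower on every cDC1 array than on any other. For Oasl2, cDC1 levels were 7.31 and 7.47 in WT and 8.04, 7.83 and 8.20 in Mbd2-/- mice, whereas its monocyte arrays ranged from 10.28 to 10.86 in WT and 10.53 to 11.18 in Mbd2-/- mice. For Oas1g, cDC1 levels were 8.34 and 8.36 in WT and 8.35, 8.59 and 8.98 in Mbd2-/- mice, whereas its monocyte arrays ranged from 11.02 to 11.92 and 11.43 to 11.79. Rtp4, a receptor transporter protein induced by interferon, and Oas1a were not well above background on the 5 cDC1 arrays. Relative to the dimmest signal that could be detected, Rtp4 was at least 3.32-fold lower in cDC1s than in monocytes and at least 1.97-fold lower than in macrophages. Oas1a was at least 1.99-fold and 1.34-fold lower (adjusted p at most 0.000317, limma, for these 4 differences).

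The remaining effectors fell by less. Ifitm3, which blocks viral entry, was 13.42 ± 0.09 in WT monocytes, 13.05 ± 0.36 in WT macrophages and 12.13 ± 0.09 in WT cDC1s (SD, n = 5, 5 and 2), and fell by 1.33 against monocytes. Bst2 (tetherin) fell by 0.42 against monocytes (adjusted p = 0.0407) and was -0.38 against macrophages (adjusted p = 0.059, limma). Among the ubiquitin and ADP-ribosyl genes, Parp14 fell by 2.53 and Trim25, the ligase that acts on Ddx58, fell by 0.20, whereas Usp18, the brake on the receptor, did not pass (-0.51, adjusted p = 0.0892) and neither did Trim21 or Trim30.

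**Figure D2:**
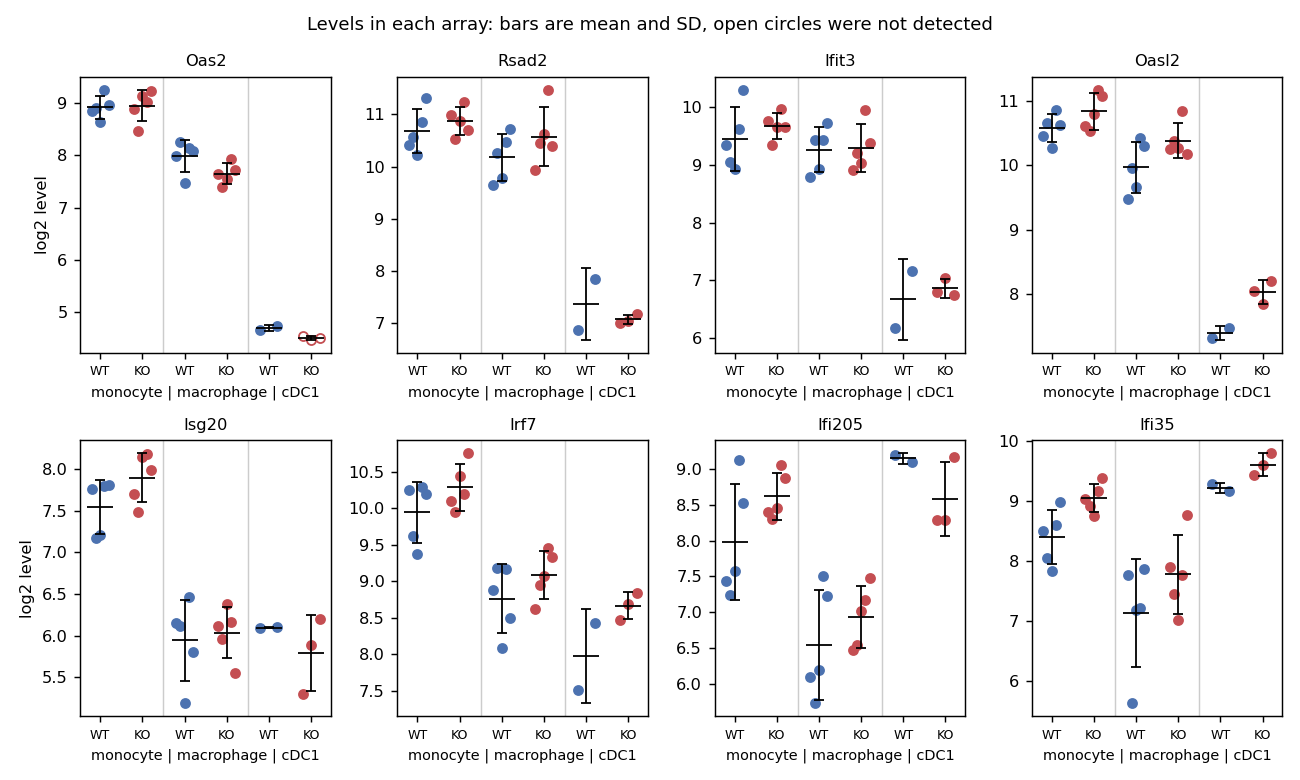
Log2 levels of 8 members on each array (dots), with mean and SD bars, for WT and Mbd2-/- (KO) monocytes, macrophages and cDC1s. Open circles were not detected. Oas2, Rsad2, Ifit3 and Oasl2 (upper row) lay lower on all cDC1 arrays than on any other array, while Ifi205 and Ifi35 (lower row) were higher in cDC1s than in macrophages on every array.

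Against macrophages the contrast was more mixed, with 27 of 52 member probes lower and 11 higher in cDC1s (all 18138 probes: 26.3% lower, 27.9% higher). The falls were again led by Oas2, Rsad2, Ifit3 and Oasl2 (-2.47). By at least 1 unit, 16 member probes were lower and 4 higher (all probes: 8.42% and 8.12%). The median of the member probes was -0.47 (-0.43 with undetected probes at their bound), beside -0.01 for all probes. By brightest probe 21 genes fell and 6 rose: Ifi205, Ifi35, Mx1, Stat2, Irf9 and Trim30. Probes of Adar, which edits double-stranded RNA, disagreed, a dimmer one rising by 0.92 and another differing by -0.51 and falling, while a dimmer Usp18 probe rose by 0.56 and its brightest did not pass (-0.13).

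Ifi205, of the Ifi200 family of DNA sensors, was the member most raised in cDC1s over macrophages. On its brightest probe it was 9.20 and 9.10 in WT cDC1s, and 8.29, 8.28 and 9.17 in Mbd2-/- cDC1s. Macrophages had 6.09, 5.72, 6.20, 7.50 and 7.22 in WT and 6.47, 6.54, 7.01, 7.17 and 7.48 in Mbd2-/- mice. The 2 cell types did not overlap, and Ifi205 rose by 2.13 (4.37-fold, SE 0.31, adjusted p = 6.54e-06, limma). Its 2 other probes, called dimmer by their mean over all colon arrays, rose by 3.24 and 3.47. On the WT cDC1 arrays 1 of these was the brighter, at 11.80 and 9.55. Against monocytes, which had 7.43, 7.24, 7.58, 9.12 and 8.52 in WT and 8.30 to 9.06 in Mbd2-/- mice, the brightest probe did not pass (0.57, adjusted p = 0.135, limma). The 2 other probes rose against monocytes as well. Ifi203, a relative of Ifi205, went the other way, from 7.44 ± 0.40 in WT monocytes to 5.06 ± 0.45 in WT cDC1s (SD, n = 5 and 2). It differed by -2.47 from monocytes and -1.53 from macrophages, both of which passed.

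Ifi35 was 9.28 and 9.16 in WT cDC1s and 9.42, 9.59 and 9.80 in Mbd2-/- cDC1s. WT macrophages had 7.77, 5.63, 7.18, 7.21 and 7.87, and Mbd2-/- macrophages 7.89, 7.44, 7.01, 7.77 and 8.77. All cDC1 arrays lay above all macrophage arrays, and Ifi35 rose by 1.96 (SE 0.30, adjusted p = 1.03e-05, limma). Compared with monocytes it did not pass (0.69, adjusted p = 0.0569).

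Mx1, a dynamin-like antiviral GTPase, was detected on only 10 of 25 arrays. The WT cDC1 arrays were at 6.17 and 5.15, and the Mbd2-/- cDC1 array 27 at 4.79, the other 2 not being above background. Macrophage and monocyte arrays ranged from 4.22 to 5.06, mostly below detection. Mx1 rose in cDC1s by 0.58 over macrophages (SE 0.16, adjusted p = 0.00455, limma), but by 0.33 and no longer past the threshold without WT cDC1 array 23, and against monocytes by 0.25 without that array, also not past it.

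Irf9 and Stat2, components of ISGF3, were not among the genes that fell. Irf9 was 9.41 and 9.34 in WT cDC1s, compared to 8.43, 8.01, 8.45, 8.92 and 9.17 in WT macrophages, and rose by 0.42 over both genotypes (SE 0.14, adjusted p = 0.0124). In Mbd2-/- mice the 2 cell types overlapped, with 9.21, 8.95 and 8.86 in cDC1s and 8.93, 8.98, 8.75, 9.13 and 8.94 in macrophages, and the difference between the genotypes did not pass (-0.72, adjusted p = 0.0867, limma). Stat2 was 7.01 and 8.10 in WT cDC1s and 7.70, 7.42 and 7.58 in Mbd2-/- cDC1s, overlapping with the macrophage range of 6.60 to 7.61. Its rise of 0.50 (SE 0.18, adjusted p = 0.0262, limma) was 0.03 with median scaling and 0.23 without WT cDC1 array 26, passing in neither, and was also lost without Mbd2-/- cDC1 array 27. Against monocytes neither passed (Irf9 -0.07, Stat2 -0.04). By contrast Irf7, itself an interferon stimulated gene, fell by 1.80 against monocytes (adjusted p = 1.9e-07) and by 0.61 against macrophages (adjusted p = 0.0178).

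Upstream of the members, the ligand Ifnb1 and the receptor chain Ifnar2 were lower in cDC1s. Ifnb1 was detected on 0 of 5 cDC1 arrays, whereas it was 5.75 ± 0.28 in WT monocytes and 7.26 ± 0.51 in WT macrophages (SD, n = 5 each). It was thus higher in macrophages than in monocytes, by 1.52 in WT (adjusted p = 0.0031) and by 1.21 in Mbd2-/- mice (adjusted p = 0.0128, limma), opposite to most members. Of 15 type I interferon ligands on the array only 4 could be tested. Ifnar2 was 8.54 ± 0.32 in WT monocytes, 8.19 ± 0.34 in WT macrophages and 6.32 ± 0.27 in WT cDC1s (SD, n = 5, 5 and 2), and the differences from macrophages and monocytes were -1.74 and -2.11. Tyk2 and Jak2 were higher in cDC1s than in macrophages by 1.55 and 1.01. Of the receptors and kinases tested by their brightest probe, 3 of 8 were higher and 3 of 8 lower than in macrophages. Among all probes 27.9% were higher and 26.3% lower. Among nucleic acid receptors, Tlr7 was lower in cDC1s by 4.71 and Tlr3 higher by 1.77 than in macrophages.

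Macrophages were compared with monocytes within each genotype, as Ly6C+ monocytes enter the gut and replenish its macrophages. When the columns of the deposited table are counted in sets of 6, the monocyte arrays lie in sets 1 and 2 and the macrophage arrays in sets 3 and 4, so that cell type and set cannot be told apart. Interferon stimulated genes were lower in macrophages: in WT mice 22 of 48 member probes fell and 0 rose (all 16510 probes: 10.3% lower, 15.3% higher), and in Mbd2-/- mice 25 of 49 fell and 0 rose (all 16614 probes: 14.2% lower, 15.3% higher). Falls of at least 1 unit were seen in 7 and 11 member probes (2.09% and 2.8% of all probes). The medians were -0.43 and -0.62, beside 0.00 for all probes in both genotypes. At an unadjusted p under 0.05, 26 and 31 member probes passed (36.3% and 38.8% of all probes). By role, 4 of 8 sensors, 2 of 3 transcription factors, 9 of 17 effectors and 1 of 5 ubiquitin and ADP-ribosyl genes fell in WT mice, and 6 of 9, 3 of 3, 10 of 18 and 2 of 5 in Mbd2-/- mice.

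Isg20, an exonuclease that degrades RNA, fell most in WT mice. Monocytes had 7.76, 7.17, 7.21, 7.79 and 7.80 and macrophages 6.16, 6.11, 5.19, 6.47 and 5.80, with no overlap, and Isg20 fell by 1.60 (3.03-fold, SE 0.22, adjusted p = 1.25e-05, limma). In Mbd2-/- mice monocytes had 7.70, 7.49, 8.14, 8.18 and 7.98 and macrophages 6.11, 5.96, 6.38, 6.17 and 5.55, and it fell by 1.86. Isg20 in cDC1s (5.30 to 6.20) differed from macrophages by -0.04, with a 95% interval from -0.45 to 0.36.

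Oas3, the largest of the oligoadenylate synthetases, fell by 1.35 in WT mice (SE 0.25, adjusted p = 0.000299) and by 1.46 in Mbd2-/- mice. It was 6.26, 6.10, 6.43, 7.32 and 6.85 in WT monocytes and 5.06, 5.57, 4.86, 5.65 and 5.06 in WT macrophages. Mbd2-/- monocytes had 6.57, 6.05, 7.18, 6.94 and 6.56 and Mbd2-/- macrophages 4.65, 5.17, 5.67, 5.65 and 4.86. Neither genotype showed overlap between the cell types, and on cDC1 arrays Oas3 was above background on 1 of 5.

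The brightest probe of Ifi205 fell by 1.43 in WT (SE 0.36, adjusted p = 0.00503) and 1.68 in Mbd2-/- mice (adjusted p = 0.0011), although WT monocytes and macrophages overlapped, since WT macrophage array 14 (7.50) lay above the lower monocyte arrays. Ifi35 fell by 1.26 in WT (SE 0.34, adjusted p = 0.00895) from 8.50, 8.05, 7.83, 8.60 and 8.97, and by 1.27 in Mbd2-/- mice from 9.03, 8.92, 8.74, 9.16 and 9.37, the groups overlapping in both. Irf7 fell by 1.18 and 1.20 with no overlap, its monocyte arrays at 10.25, 9.62, 9.37, 10.29 and 10.20 in WT and its macrophage arrays at 8.88, 9.18, 8.09, 9.18 and 8.50. Ddx58 (the sensor RIG-I) fell by 1.12 in WT mice (adjusted p = 0.0131) and was -0.59 in Mbd2-/- mice (adjusted p = 0.19, limma).

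The 2 genotypes share no array in this contrast. Of 46 member probes tested in both, 40 were below 0 in both, 1 was above 0 in both and 5 differed in sign, so that 89.1% had the same sign compared with 75.3% of 15839 probes. For the difference between the genotypes, 0 of 48 member probes passed (0.0245% of 16347 probes did), and 5 had an unadjusted p under 0.05 (8.33% of all probes). Dlm1-pending lay farthest from equality, at -0.77 in WT (adjusted p = 0.281) and -2.43 in Mbd2-/- mice (adjusted p = 0.000787), but its difference of -1.65 did not pass (adjusted p = 0.566, limma).

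**Figure D3:**
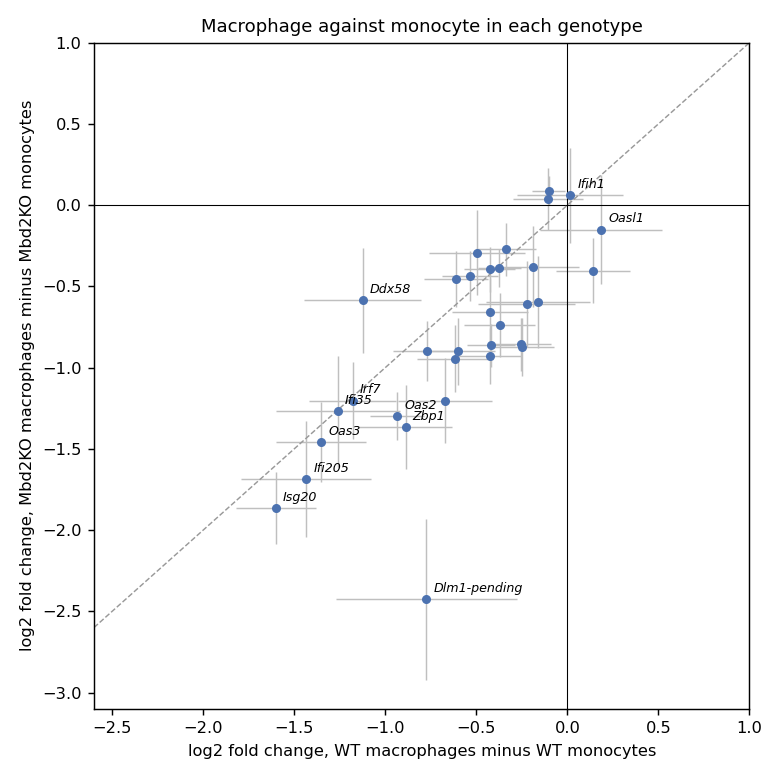
Log2 fold change of macrophages minus monocytes in Mbd2-/- mice against that in WT mice, for the members' brightest probes tested in both, with bars of 1 SE and the line of equality (dashed). Most points lie below 0 on both axes, with Isg20, Ifi205, Oas3, Ifi35 and Irf7 farthest along the line and Dlm1-pending below it.

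Between the genotypes few member probes passed in any of the 3 cell types. Counting both directions, their share was no higher than that of all probes, most of which also had no call. In monocytes 1 of 49 member probes passed (2.36% of 16190 probes, with 1.07% higher). In macrophages 0 of 45 passed (7.11% of 16834, with 3.4% higher). In cDC1s 3 of 48 passed (8.65% of 17838, with 4.09% lower and 4.56% higher). With array weights 6 passed in monocytes, where the share of all probes was not computed. At an unadjusted p under 0.05 the counts were 13, 10 and 7, beside 15.3%, 25.3% and 25.8% of all probes. All 13 in monocytes were higher in Mbd2-/- mice (6.07% of all probes were) and the 10 in macrophages were split, 7 higher and 3 lower. The smallest adjusted p in macrophages was 0.0563, for a dimmer Ifi205 probe. A lack of a call does not show that levels were alike, and the 95% interval of the difference gives what could have been missed: it lay wholly within 1 log2 unit of 0 for 28 of 34 genes in monocytes, 28 of 33 in macrophages and 15 of 32 in cDC1s. Intervals were wider in cDC1s, with 2 and 3 arrays (median half-width 0.63, compared to 0.43 in the other cells). The fit used 1 spread per probe for all 25 colon arrays. Where cDC1 arrays varied more than the others, their intervals are therefore too narrow, and more could have been missed.

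**Figure D4:**
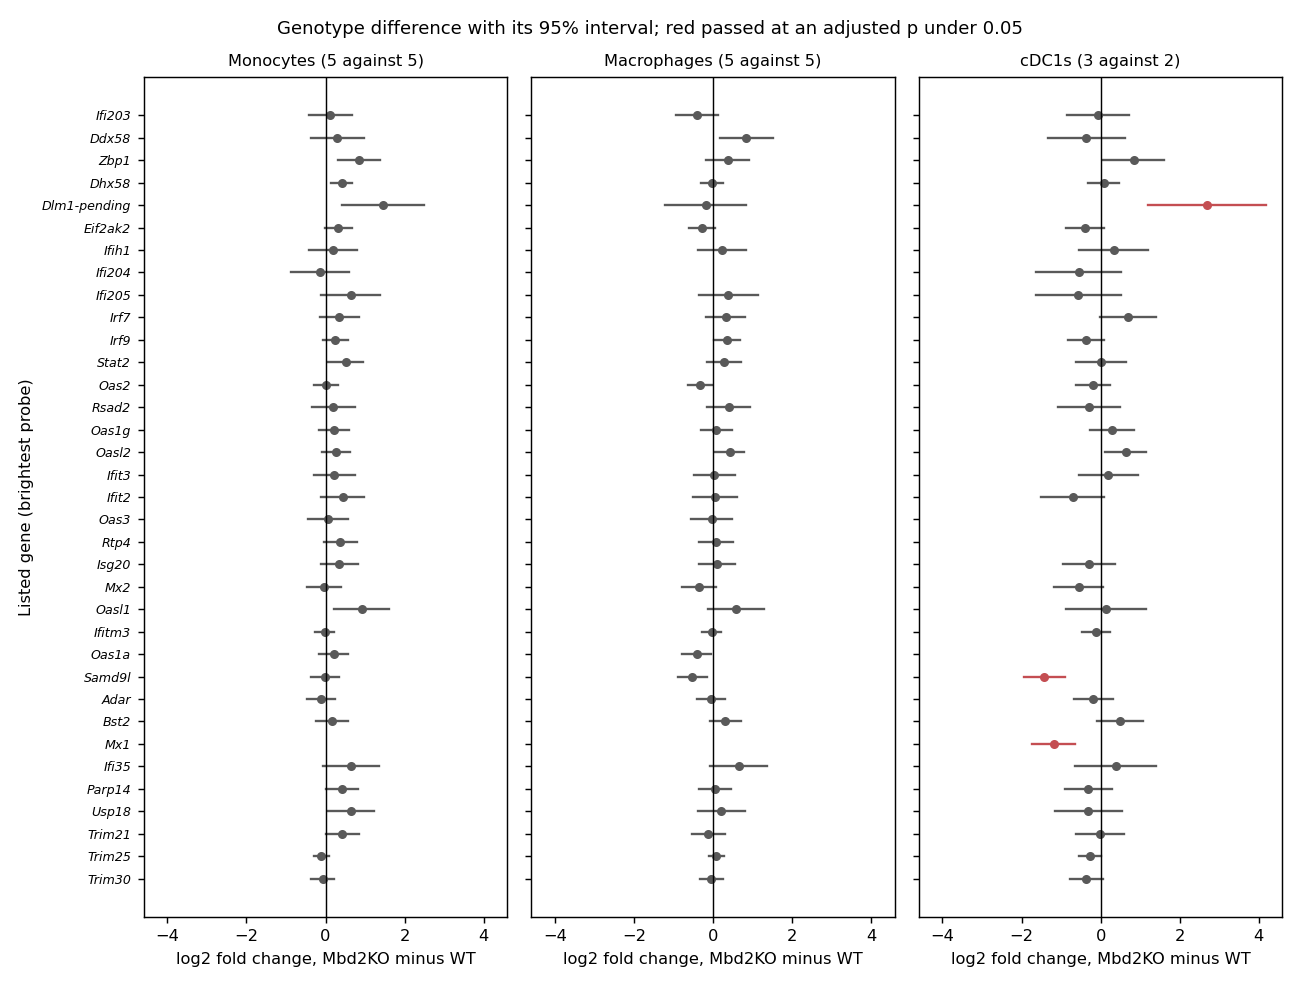
Difference between Mbd2-/- (KO) and WT with its 95% interval for the brightest probe of each member, on the log2 scale, in monocytes, macrophages and cDC1s. Red marks an adjusted p under 0.05, reached only by Dlm1-pending, Samd9l and Mx1 in cDC1s. In monocytes 8 intervals lay above 0 and 0 below.

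In monocytes the members leaned upward in Mbd2-/- mice. Of 49 member probes 38 were above 0, or 77.6% compared to 46.1% of all probes, with a median of 0.30 beside -0.02. With median scaling in place of quantile normalisation the medians were 0.02 and -0.26. The arrays of 1 genotype were also not alike. WT arrays 4 and 5 had per-array member medians of 9.06 and 9.00, at the level of the Mbd2-/- arrays (9.03, 8.69, 9.13, 9.16 and 9.31), whereas WT arrays 1, 2 and 3 had 8.50, 8.46 and 8.02. In the sets of 6 columns, the number of arrays a BeadChip of this kind was taken to hold, arrays 1 to 3 stand with Mbd2-/- arrays 9 and 10, and arrays 4 and 5 with Mbd2-/- arrays 6 to 8. Within the first set the median difference was 0.70 (46 of 49 above 0), and within the second -0.14 (17 of 49 above 0). The files name no chip, and with these sets as a block in the fit the same 1 probe passed (adjusted p = 0.0416).

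Zbp1, a sensor of Z-form nucleic acids that can trigger cell death, carried the one call in monocytes. Its dimmer probe was 5.50, 4.72, 4.63, 5.37 and 5.75 in WT monocytes and 6.08, 6.30, 6.29, 6.05 and 7.08 in Mbd2-/- monocytes. The groups did not overlap, and the probe rose by 1.16 (SE 0.27, adjusted p = 0.0223, limma). Its brightest probe had 7.20, 7.28, 7.06, 8.36 and 8.05 in WT and 8.04, 8.21, 8.48, 8.63 and 8.80 in Mbd2-/- monocytes, which overlapped, and did not pass (0.84, SE 0.26, adjusted p = 0.0904, limma). Within the first set of 6 columns the dimmer and the brightest probe differed by 1.61 and 1.53. Within the second set they differed by 0.66 and 0.04. Dlm1-pending, on the same gene by RefSeq's synonyms, differed by 1.46 (adjusted p = 0.132), with 7.47, 7.84, 7.22, 8.02 and 9.61 in WT and 9.56, 9.92, 9.62, 8.47 and 9.91 in Mbd2-/- monocytes. The dimmer probe lost its call without WT array 2 or 3 or Mbd2-/- array 10 (adjusted p of 0.0782, 0.0836 and 0.0753, within 0.00308 to 0.0898 over all alternatives), and the brightest probe passed with array weights.

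In macrophages 0 of the 33 genes passed and their median was 0.08. Samd9l, a suppressor of translation in infected cells, was -0.52 (adjusted p = 0.0676) and Ddx58 0.84 (adjusted p = 0.11, limma). The dimmer probes of Ifi205 differed most, by 2.42 and 1.77 (adjusted p = 0.0563 and 0.0674), with a split among the Mbd2-/- arrays. On the first of them Mbd2-/- macrophages had 5.09, 4.99, 7.65, 8.50 and 9.93, while WT macrophages had 5.02 and 5.98 on arrays 14 and 15 and were below detection on arrays 11 to 13. On its brightest probe the Mbd2-/- macrophages ranged only from 6.47 to 7.48, so the probes of this gene disagreed. Within such sets the member median was 0.42 (38 of 45 above 0) with arrays 11 to 13 against 19 and 20, and -0.18 (11 of 45 above 0) with arrays 14 and 15 against 16 to 18.

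In cDC1s 3 symbols passed by their brightest probe, and the other 29 did not. The gene of Zbp1 is on both sides, as Dlm1-pending passed and Zbp1 did not. The median of the member probes was -0.15, beside 0.03 for all probes. The WT arrays lie in column sets 1 and 2 and the Mbd2-/- arrays in sets 3, 4 and 5, so that genotype and set cannot be told apart in these cells. Markers of other cells also moved between the genotypes. Macrophage marker probes were above 0 in Mbd2-/- cDC1s on 9 of 9 (median 0.61, C1qb alone passing), with summed intensities of 2850 to 5620 compared to 2456 and 2630 in WT. Monocyte marker probes were above 0 on 6 of 6 (median 0.70, 0 passing). Of 10 plasmacytoid dendritic cell probes, 3 of Pacsin1 rose and that of Tcf4 fell, while Ltf of neutrophils and Prg2 of eosinophils rose. Of 13 cDC1 marker probes 2 dimmer ones of Itgae fell, and T cell marker probes were above 0 on 1 of 7. The part of these cells in the genotype differences of cDC1s was not tested.

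Samd9l was 9.54 and 9.69 in WT and 8.39, 8.27 and 7.89 in Mbd2-/- cDC1s. The groups were apart, and Samd9l fell by 1.43 (2.69-fold, SE 0.25, adjusted p = 0.00208, limma). It stayed past the threshold without any single cDC1 array. Its level in Mbd2-/- cDC1s was below that of every monocyte and macrophage array, which ranged from 8.91 to 10.56.

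Mx1 fell by 1.19 (SE 0.27, adjusted p = 0.00951), from 6.17 and 5.15 in WT to 4.79 on Mbd2-/- array 27 and to background on arrays 28 and 30. As 1 of 3 Mbd2-/- arrays detected it, the size of this difference is at the edge of detection. Without WT array 23 the difference was -0.68 and did not pass. Dlm1-pending went the other way, from 5.31 and 6.77 in WT to 8.24, 8.50 and 9.45 in Mbd2-/- cDC1s, a rise of 2.69 (6.45-fold, SE 0.72, adjusted p = 0.0242, limma). This call was lost without WT array 23 or Mbd2-/- array 30, with median scaling and with array weights. The Zbp1 probes did not pass in these cells: the brightest, at 5.53 and 6.54 in WT and 6.46, 7.01 and 7.14 in Mbd2-/- cDC1s, differed by 0.84 (adjusted p = 0.158), and the dimmer was detected on 2 of 5 arrays. With the cDC1 arrays fitted alone, none of Samd9l (-1.36, adjusted p = 0.12), Mx1 (-0.99, adjusted p = 0.216) or Dlm1-pending (2.50, adjusted p = 0.15) passed.

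**Figure D5:**
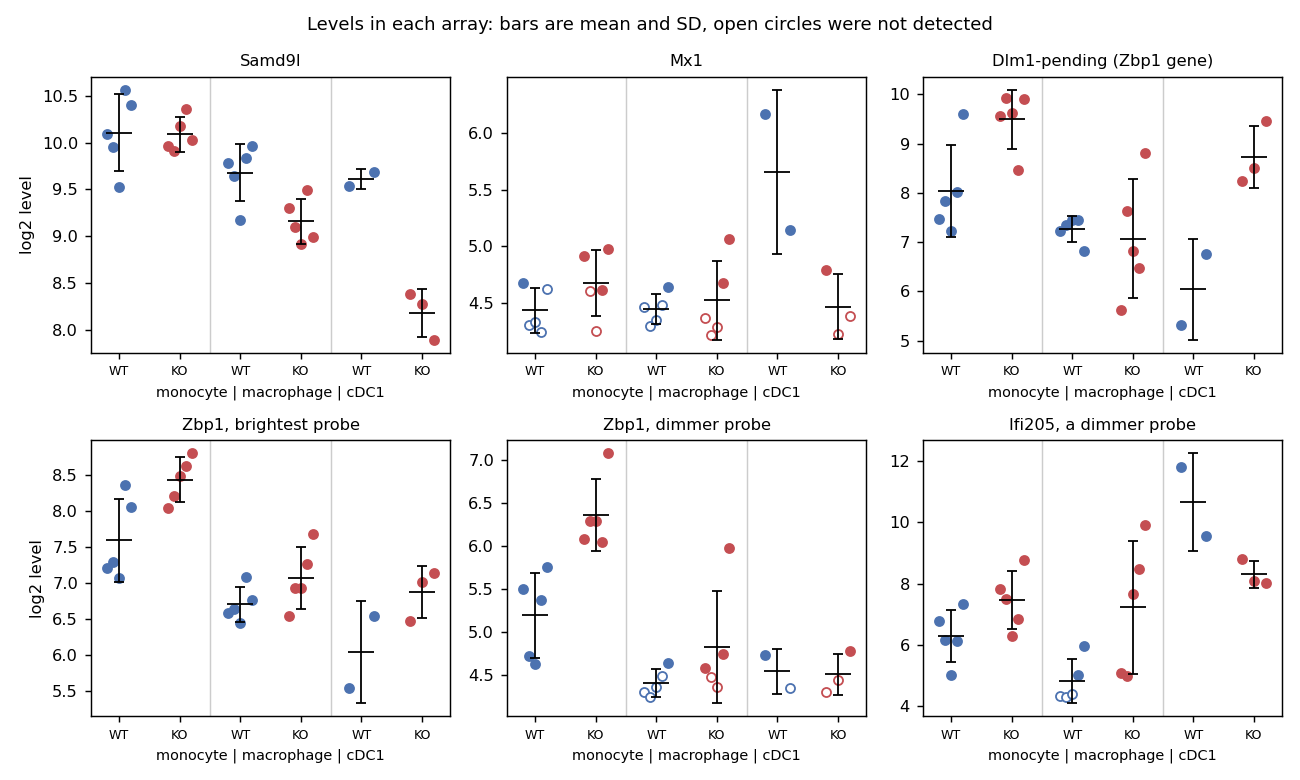
Log2 levels on each array (dots) with mean and SD bars for 6 probes whose genotype difference, or its difference between cell types, passed or which belong to the same gene. Open circles were not detected. Samd9l separated the genotypes in cDC1s but not in monocytes, and a dimmer Ifi205 probe was higher in WT than in Mbd2-/- cDC1s and split among Mbd2-/- macrophages.

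The genotype effect itself was compared between cell types. For cDC1s against monocytes 2 of 52 member probes passed (2.03% of 17552 probes), namely Mx1 (-1.43, adjusted p = 0.0269) and Samd9l (-1.41, adjusted p = 0.0231). For cDC1s against macrophages 4 of 52 passed (10.7% of 18138 probes): Dlm1-pending (2.88, adjusted p = 0.0403), Mx1 (-1.27, adjusted p = 0.0202) and both dimmer Ifi205 probes (-3.60 and -4.78, adjusted p = 0.0317 and 0.0292, limma). The Ifi205 probe shown in the plot of genotype levels was at 11.80 and 9.55 in WT cDC1s and 8.82, 8.08 and 8.04 in Mbd2-/- cDC1s. Samd9l did not pass in this second contrast (-0.91, adjusted p = 0.0582). Without WT cDC1 array 23, 0 member probes passed in either contrast. These contrasts share the cDC1 arrays. For Mx1 they rest partly on values below detection, as it was detected on 1 of 5 WT and 3 of 5 Mbd2-/- monocyte arrays and on 1 of 5 WT and 2 of 5 Mbd2-/- macrophage arrays.

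Genes around the pathway were taken from further lists. Jak2 fell in Mbd2-/- cDC1s by 0.94 (adjusted p = 0.00974, limma), the one of 8 receptor and kinase genes to pass there. Among all probes tested for genotype in these cells, 4.09% were lower and 4.56% higher. Tlr7 rose in Mbd2-/- cDC1s by 0.70 (adjusted p = 0.0322) from 4.89 ± 0.24 to 5.59 ± 0.47 (SD, n = 2 and 3), far below its level in the other cells. The part of the macrophage and monocyte markers above 0 in Mbd2-/- cDC1s in these differences was not tested.

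Of a list of genes induced by IFN-γ, 17 were on the array. Of the probes tested, 3 of 26 rose in Mbd2-/- monocytes, 4 of 25 in macrophages and 1 of 25 in cDC1s, and 0 fell. Among all probes 1.07%, 3.4% and 4.56% were higher. The medians were 0.91, 0.59 and 0.36, beside -0.02, -0.07 and 0.03 for all probes. Above 0 were 26, 23 and 18 probes, beside 46.1%, 39.6% and 52.7% of all probes. A pair of these genes was named after their values were seen. Indo (indoleamine 2,3-dioxygenase, which degrades tryptophan) rose in Mbd2-/- monocytes by 2.23 and in Mbd2-/- macrophages by 2.55. Ubd, a ubiquitin-like modifier, rose in Mbd2-/- monocytes, macrophages and cDC1s, by 1.67, 1.98 and 2.39 (adjusted p at most 0.000792, limma).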

How the data were processed

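Per the file headers and the labels, the deposited table holds bead intensities as read by GenomeStudio, with no normalisation or background subtraction by the authors, for 45281 probes and 936 negative controls. A detection p-value against the negative controls was deposited beside each intensity. The submitters' processing notes name lumi and limma, without versions. Of the 27 arrays of the series, the 25 from colon were used, and 3 further columns of the table belong to no sample and were left out. RNA kits and pool sizes are given differently in the labels and in the methods.

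Intensities were corrected with normexp on the negative controls (offset 16), quantile normalised and log2 transformed. Differences were tested with limma 3.58.1 in R 4.3.3 (lmFit, contrasts.fit, eBayes, two-sided) in 1 model of 6 groups without covariates. The model was run on simulated data with independent noise, of the same spread in all groups for a probe. Those data held no column sets and no larger spread in cDC1s, so they do not test the model under such conditions. Probes entered a test if detected (p under 0.05) in a number of arrays no lower than the size of the smaller arm. P-values were adjusted by Benjamini-Hochberg over all probes tested in a comparison, and a probe passed, rising or falling, at an adjusted p under 0.05. Every listed symbol was accounted for by its brightest probe, the one with the highest mean over the colon arrays. Array values are given for genes that passed between genotypes and for the 4 largest changes in each direction between cell types, and other genes were named as examples after their values were seen. The members, the other lists and the tests were chosen with earlier results of these data known. Background correction, offset, scaling, filters, thresholds, array weights, blocks, the arrays fitted and single arrays were varied, and eBayes with trend and robust was added after seeing the data. Promoters were read from RefSeq's table. The precision is limited by the number of arrays. Results that need 1 gene of the pathway lists are not reported here.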

Additional observations from a re-analysis of the deposited data

Results flagged for a closer look

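Among 60 groups of 5 arrays tested for a single far value (15 probes), 3 held one, and chance gives about 1 in 20. In Mbd2-/- monocytes, Dlm1-pending was at 8.47 on array 9, below the other 4 arrays (9.56 to 9.92). On the dimmer Zbp1 probe array 10 was at 7.08 in Mbd2-/- monocytes and array 20 at 5.97 in Mbd2-/- macrophages, each above the other arrays of its group.

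The genotype difference itself differed between cell types for 4 members. For cDC1s against monocytes 2 of 52 member probes passed, beside 2.03% of all probes. Against macrophages 4 of 52 passed, below the 10.7% of all probes. For Samd9l the effect in cDC1s minus that in monocytes was -1.41, and it no longer passed with median scaling, with array weights, or without WT cDC1 array 23 or Mbd2-/- cDC1 array 30. For Mx1 it was -1.43 against monocytes and -1.27 against macrophages. Without WT cDC1 array 23 these were -0.92 and -0.76 and passed in neither, and both were also lost with array weights and without Mbd2-/- array 28. For the dimmer Ifi205 probes the effect in cDC1s minus that in macrophages was -3.60 and -4.78, and without array 23 it was -2.73 and -3.67, neither of which passed. Both were also lost with array weights, without the filter on dim probes, with only the compared cell types fitted, and without Mbd2-/- cDC1 array 28 or 30. For Dlm1-pending it was 2.88, and the adjusted p ran from 0.0153 to 0.274 over the alternatives (limma). The call was lost in 10 of 15 fits that left out 1 array and under 8 of the other 10 alternatives. The T cell markers also varied among these cDC1 arrays, from 659 to 2920 in WT and 391 to 2403 in Mbd2-/- mice, and their part was not tested.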

How the results depend on the processing

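The counts below are of member probes that passed (limma). Median scaling gave 0 in the genotype comparison of monocytes, 13 and 16 for macrophages against monocytes in WT and Mbd2-/- mice, and 0 for the genotype effect in cDC1s against monocytes. It also moved the median of all probes by over 0.1, to -0.26 for genotype in monocytes, -0.37 for genotype in cDC1s, -0.28 for cDC1s against either cell type and 0.13 for Mbd2-/- macrophages against monocytes, where the members had 0.02, -0.58, -0.84 (macrophages), -1.50 (monocytes) and -0.49. The member median of the genotype effect in macrophages minus monocytes turned from -0.21 to 0.0557, beside 0.21 for all probes. Without the filter on dim probes 0 passed for genotype in monocytes, 14 for WT macrophages against monocytes, and 1 each for the genotype effect in cDC1s against monocytes and against macrophages. A stricter filter gave 1 for genotype in macrophages. At an adjusted p under 0.01 the counts were 0 for genotype in monocytes, 8 for WT macrophages against monocytes, and 0 for both cDC1 differences of the genotype effect. Requiring a change of at least 1 log2 unit left 7 and 11 for macrophages against monocytes and 20 for cDC1s against macrophages. An unadjusted p under 0.05 gave 13, 10 and 7 for genotype in monocytes, macrophages and cDC1s, and 5, 9 and 10 for its differences between cell types. Fitting only the cell types compared left 0 for genotype in cDC1s and 0 for the genotype effect in cDC1s against macrophages. Array weights gave 6 for genotype in monocytes and 0 for both cDC1 differences. By brightest probe the counts were 0 for genotype in monocytes, 27 for cDC1s against monocytes and 2 for the genotype effect in cDC1s against macrophages. Columns in sets of 6 as a block gave 1 for genotype in macrophages. The causes of these changes were not tested.

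Leaving out single arrays gave 0 to 2 calls for genotype in monocytes (0 without WT array 2 or 3 or Mbd2-/- array 10, 2 without WT array 4 or 5), 0 to 3 in macrophages (3 without WT array 15, 2 without WT array 13 or Mbd2-/- array 16 or 17) and 2 to 8 in cDC1s (2 without WT array 23 and 8 without WT array 26). For macrophages against monocytes the counts were 12 to 23 in WT (12 without WT macrophage array 13, 14 without WT monocyte array 4 or 5) and 22 to 30 in Mbd2-/- mice. They were 30 to 38 for cDC1s against macrophages and 33 to 41 against monocytes. Differences of the genotype effect gave 0 for macrophages against monocytes, 0 to 3 for cDC1s against monocytes and 0 to 7 for cDC1s against macrophages, the highest without WT cDC1 array 26 and 0 without WT array 23 or Mbd2-/- array 30 (against monocytes) or 28 (against macrophages). Single genes were followed through the alternatives where they passed in a genotype comparison or in a difference of the genotype effect. So were up to 4 of the largest changes in each direction for WT macrophages against monocytes and for cDC1s, and Zbp1 in monocytes. None of these changed sign, and the other genes named here were not followed. Of the values of the followed genes 556 kept their side of the threshold, 66 lost the call and 2 gained one. The labels state no pairing of arrays whose numbers differ by 10. Of 10 such pairs 8 had correlations over 0.1 (range -0.02 to 0.56), and 8 monocyte arrays correlated best with their own number, a hint from the data and not the design. As a random replicate block the numbers gave 22 calls for WT and 26 for Mbd2-/- macrophages against monocytes, changing no call of a comparison by over 1.5 times. Genes near background, such as Mx1, Oas1a and Rtp4, have differences limited by the signal over the negative controls.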
